A study of Mus musculus with 2 samples.

Results

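The genes described here are 43 lysosomal genes among the 25827 genes of a single-cell study of the mouse brain. They were taken by symbol, and each of the 43 symbols was found exactly once. They comprise 10 cysteine proteases (9 cathepsins and legumain), 3 aspartic and serine proteases, 9 glycan-cleaving enzymes and sulfatases, 8 lipid enzymes and lipid carriers, 8 membrane proteins, 4 subunits of the vacuolar proton pump (V-ATPase) and progranulin. The study profiled adult mice carrying a lacZ allele of Il34, the gene of interleukin-34, a ligand of the CSF1 receptor on macrophages. 1 droplet library came from IL34LacZ/+ mice and 1 from IL34LacZ/LacZ mice, and these are called the heterozygous and the homozygous library. The labels do not say how many mice were used per library. Both libraries carry at least 1 lacZ allele, and no library of mice without it was analysed here. Each library held cells sorted from whole brain: mural cells and fibroblasts by CD13 or CD140a without O4, endothelial cells by CD31, astrocytes by ACSA-2, border-associated macrophages (BAMs) as CD11bhiF4/80+ and microglia as CD11b+F4/80hi.

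Lysosomes are acidic organelles that break down proteins, glycans and lipids taken up from outside or delivered from within the cell. Cathepsins and other hydrolases do the cutting, and the V-ATPase supplies the acid. Membrane proteins such as LAMP1 and LAMP2 protect the limiting membrane, and other membrane proteins move the products out. Macrophages such as microglia and BAMs clear debris by this route, and cathepsin S, cathepsin L and legumain also process antigens and the invariant chain of MHC class II. Many lysosomal genes are controlled together by the transcription factors TFEB and TFE3, which bind an E-box motif near their start sites.

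The 2 matrices held 87394167 and 95505407 UMIs, and 8220 heterozygous and 9632 homozygous cells were kept. They fell into 26 clusters, formed without the 43 genes and named from marker genes, so that the clusters do not rest on the genes described. BAM-like cells numbered 1898 and 1843, microglia-like cells 757 and 1037, endothelial-like cells 1825 and 1722, mural-like cells 190 and 353 and fibroblast-like cells 1529 and 2031. Unless a sentence says otherwise, the heterozygous value comes first and the homozygous value second. Choroid plexus epithelial-like, neuron-like, ependymal-like, oligodendrocyte-like and neutrophil-like cells were also present, while astrocyte-like cells, at 12 and 15, were too few to describe. Levels are UMIs summed over the cells of a class and scaled by that class's total (CPM), with exact Poisson 95% intervals in square brackets, and ratios carry exact conditional binomial 95% intervals. With 1 library per genotype there are no replicates and no test between genotypes was possible, so intervals cover counting error only. The libraries shared 103 cell barcodes, 26 of them among the kept cells.

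The promoters of some of the lysosomal genes held the core of the motif read by TFEB and TFE3. RefSeq promoters (GRCm38.p6, from 250 bases before to 50 bases after the start) matched 36 of the 43 genes. The letters CACGTG, which read the same on both strands, were present in 12 of these 36 genes (33.3%), against 8.91% of all 17492 protein-coding genes with such windows. The longer form TCACGTG, which contains the first and was searched on both strands, was present in 27.8% against 4.997%, and TCACGTGA in 13.9% against 1.41%. TCACGTGA with a G before it and a C after it, the longest form searched, was in 0 of the 36, against 0.469%. The windows below, with CACGTG in capitals, are from 8 genes that represent the proteases, glycan enzymes, membrane proteins and proton pump:
Ctsd, chr7:142387908-142387937, minus strand: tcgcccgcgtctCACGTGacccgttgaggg
Lgmn, chr12:102439124-102439153, minus strand: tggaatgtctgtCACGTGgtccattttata
Ctsa, chr2:164833749-164833778, plus strand: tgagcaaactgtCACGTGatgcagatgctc
Glb1, chr9:114401018-114401047, plus strand: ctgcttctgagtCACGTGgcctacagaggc
Gaa, chr11:119267811-119267840, plus strand: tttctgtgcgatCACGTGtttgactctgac
Lamp1, chr8:13159134-13159163, plus strand: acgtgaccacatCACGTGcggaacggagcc
Mcoln1, chr8:3500462-3500491, plus strand: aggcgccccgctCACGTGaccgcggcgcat
Atp6v0d1, chr8:105566050-105566079, minus strand: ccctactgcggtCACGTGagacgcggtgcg
These are matches of letters in the reference, and no binding was measured. The promoter of Lamp1 held 4 copies, and those of Ctsa, Ctsd and Mcoln1 held 2 each.

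Microglia-like and BAM-like cells devoted the largest share of their transcripts to the 43 genes. Of all UMIs, the genes took 3.28% and 3.41% in the microglia-like class, and the BAM-like class followed with 2.63% and 2.77%. The share was 0.803% and 0.815% in fibroblast-like, 0.773% and 0.778% in choroid plexus epithelial-like, 0.651% and 0.602% in oligodendrocyte-like, 0.599% and 0.661% in mural-like, 0.524% and 0.527% in ependymal-like, 0.507% and 0.529% in endothelial-like and 0.415% and 0.416% in neuron-like cells. Neutrophil-like cells stood between these groups at 1.22% and 1.36%, but their single cells were spread widely. Their 25th and 75th percentiles were 0.365% and 1.85% in the heterozygous and 0.331% and 1.72% in the homozygous library. The 12 BAM markers summed to 5171 and 4132 CPM in the neutrophil-like cluster. The part of that macrophage RNA in their lysosomal share was not tested. Among single cells, microglia-like cells had a median share of 3.14% and 3.27% and BAM-like cells one of 2.55% and 2.71%, and the 10th percentile of microglia-like cells lay at 2.16% and 2.27%. The 90th percentile of endothelial-like cells was 0.776% and 0.770%, below the 10th percentile of microglia-like cells. The order of the macrophage classes depended on the genes most abundant in microglia-like cells. In the heterozygous library, Ctss, Ctsd and Lgmn had 5132, 5620 and 3331 CPM in microglia-like and 1791, 1897 and 1467 CPM in BAM-like cells. In the homozygous library they had 5861, 5558 and 3183 CPM and 2210, 2117 and 1408 CPM. More of the 43 genes were highest in BAM-like (16) than in microglia-like cells (13) in both libraries.

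**Figure D1:**
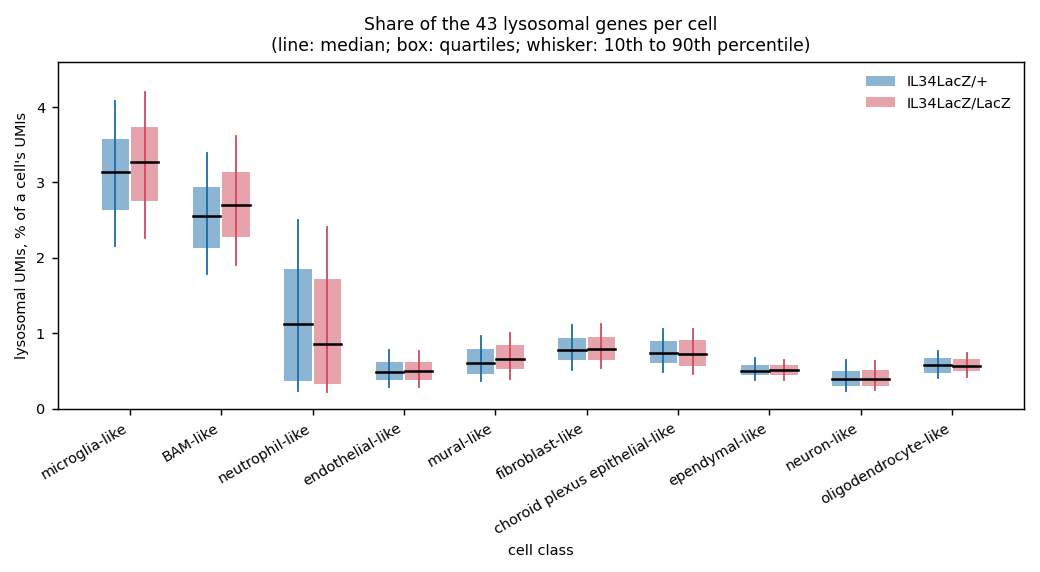
Share of each cell's UMIs that came from the 43 lysosomal genes, in percent, by cell class and library (line, median; box, quartiles; whisker, 10th to 90th percentile). Microglia-like cells have medians of 3.14% and 3.27% and BAM-like cells of 2.55% and 2.71%, above every other class shown in both libraries.

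Most of the genes peaked in a macrophage class, and the matching share over all genes was not calculated. Over 10 classes, 16 of the 43 genes were highest in BAM-like cells in both libraries and 13 in microglia-like cells, and the highest class was the same in both libraries for 38 genes. For 30 of these the interval of the highest class lay apart from that of the next class in both libraries. The exceptions were Ctsk and Gaa, highest in fibroblast-like cells, Npc1 and Lamp1 in oligodendrocyte-like, Laptm4b and Atp6v1a in choroid plexus epithelial-like, Mcoln1 and Atp6v1b2 in neuron-like and Laptm4a in mural-like cells. Ctso, Manba, Lamp2, Scarb2 and Atp6v0d1 changed their highest class between the libraries.

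**Figure D2:**
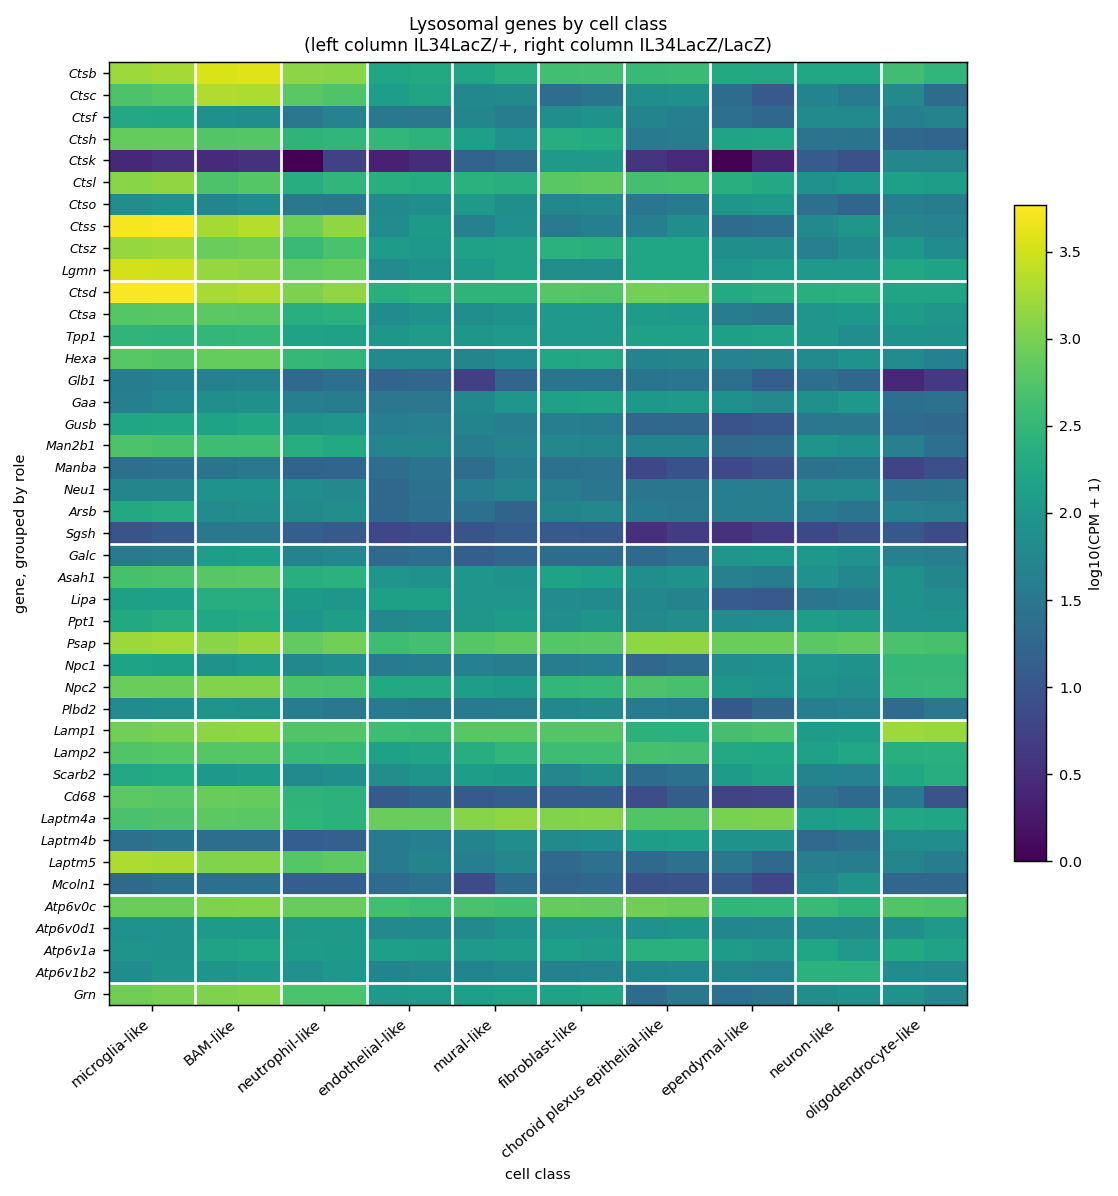
Level of each of the 43 lysosomal genes (rows, grouped by role) in 10 cell classes, as log10(CPM + 1); in each class the left column is IL34LacZ/+ and the right column IL34LacZ/LacZ. Ctss, Lgmn, Cd68, Laptm5 and Ctsc are each brighter in the microglia-like and BAM-like columns than in the vascular and fibroblast-like ones. Ctsk is brightest in fibroblast-like cells.

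Between the macrophage classes, the cysteine proteases divided. A gene was called higher or lower when its ratio was at least 2-fold in the same direction in both libraries, with both intervals excluding 1 and at least 100 UMIs in all. Of 42 genes tested, 6 were higher in microglia-like than in BAM-like cells (Ctss, Ctsd, Lgmn, Ctsl, Ctsf and Arsb) and 4 lower (Ctsc, Ctsb, Galc and Sgsh). Over all 10316 genes tested, 7.27% were higher and 6.71% lower. The median log2 ratio of the 42 was -0.20 and -0.15, against 0.15 and 0.12 for all genes. Ctsk had too few UMIs for the comparison.

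Gene positions are those of GENCODE vM21 on GRCm38. Cathepsin S (Ctss, ENSMUSG00000038642, chr3:95526786-95556403), an elastin- and invariant chain-cleaving protease that remains active outside the acidic lysosome, was among the genes higher in microglia-like cells. It stood at 5132 CPM [5042 to 5224] and 5861 CPM [5783 to 5939.7] in microglia-like and at 1791 CPM [1762 to 1819.9] and 2209.7 CPM [2179 to 2240.4] in BAM-like cells, a ratio of 2.87 [2.80 to 2.94] and 2.65 [2.60 to 2.70]. Legumain (Lgmn, ENSMUSG00000021190, chr12:102394084-102439813), the asparaginyl endopeptidase that trims other lysosomal proteases, measured 3331 and 3183 CPM in microglia-like and 1467 and 1408 CPM in BAM-like cells, with ratios of 2.27 [2.21 to 2.34] and 2.26 [2.20 to 2.32]. Both genes were therefore more than 2-fold apart between the macrophage classes in each library. Ctsl, which encodes the cathepsin L endopeptidase, had 1273 and 1371 CPM against 522 and 595 CPM, and Ctsf 185 and 183 CPM against 75.9 and 68.4 CPM. Ctsl was not restricted to macrophages, since fibroblast-like cells held 634 and 683 CPM, and their cluster 19 1332 and 1124 CPM.

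The opposite order held for cathepsins B and C. Ctsb (ENSMUSG00000021939, chr14:63122462-63145923), a cysteine protease with both endo- and exopeptidase activity, stood at 3593 CPM [3552 to 3634] and 3806 CPM [3766 to 3846] in BAM-like and at 1640.4 CPM [1589 to 1693] and 1845 CPM [1801 to 1889] in microglia-like cells, with ratios of 0.457 [0.442 to 0.472] and 0.485 [0.472 to 0.497]. Ctsc (ENSMUSG00000030560, chr7:88278085-88310888), the dipeptidyl peptidase that activates granule serine proteases, measured 2072 and 2033 CPM in BAM-like and 519.9 and 593 CPM in microglia-like cells, ratios of 0.251 [0.237 to 0.266] and 0.291 [0.279 to 0.305]. Ctsz (1463 and 1568 CPM in microglia-like, 807 and 895 CPM in BAM-like cells) and Ctsh (742 and 754 CPM and 578 and 599 CPM) were above 1 in both libraries without reaching 2-fold. Ctsk, the collagen-degrading cathepsin known from osteoclasts, was at 105 CPM [98.3 to 112] and 103 CPM [97.7 to 109] in fibroblast-like cells and at 1.83 and 2.51 CPM in BAM-like cells. Ctso ranged over the classes from 23.2 to 105 CPM and from 15.9 to 109 CPM, without a macrophage peak.

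**Figure D3:**
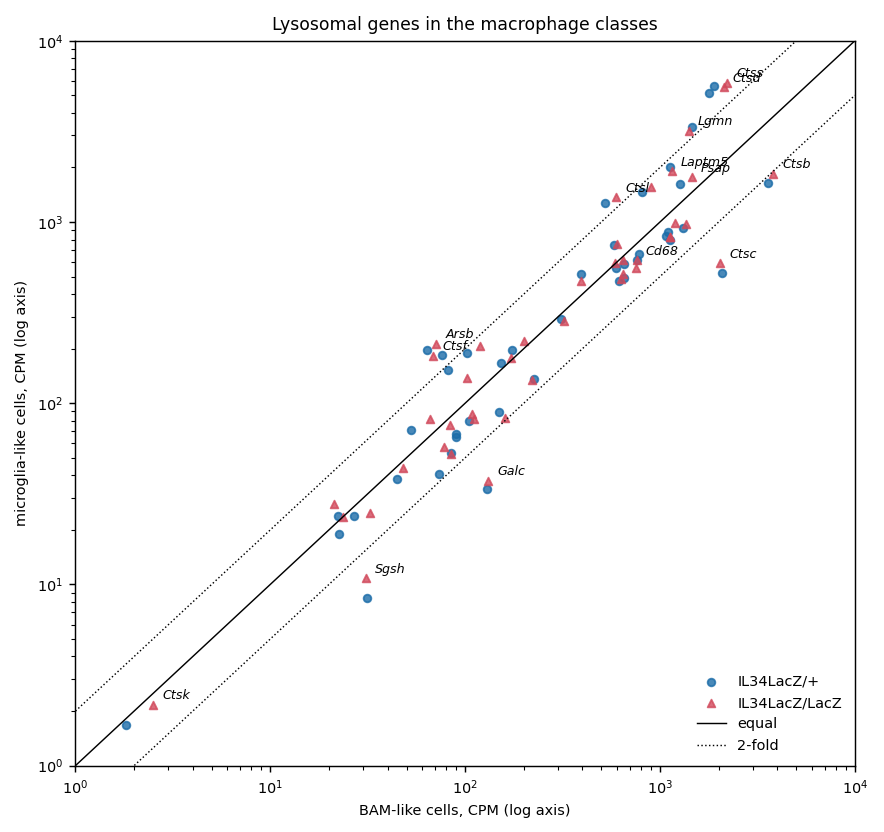
Level of each of the 43 genes in BAM-like (x axis) and microglia-like cells (y axis), in CPM on log axes; circles are IL34LacZ/+ and triangles IL34LacZ/LacZ, the solid line marks equal levels and the dotted lines a 2-fold difference. Ctss, Ctsd, Lgmn, Ctsl, Ctsf and Arsb lie above the upper dotted line, and Ctsc, Ctsb, Galc and Sgsh below the lower one.

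Among the other proteases, cathepsin D (Ctsd, ENSMUSG00000007891, chr7:142375911-142388038), the main aspartic protease of the lysosome, measured 5620.3 CPM [5525 to 5716] and 5558 CPM [5482 to 5635] in microglia-like and 1897 CPM [1867 to 1927] and 2117 CPM [2088 to 2147] in BAM-like cells. Its ratio was 2.96 [2.90 to 3.03] and 2.63 [2.57 to 2.68]. Choroid plexus epithelial-like cells had 951 and 929 CPM, the highest level outside the macrophage and neutrophil-like classes. Ctsa, the protective protein of galactosidase and neuraminidase, was nearly level between microglia-like (585 and 615 CPM) and BAM-like cells (657 and 646 CPM). Tpp1, a tripeptidyl peptidase, was also close, at 291 and 284 CPM and 309.6 and 319.7 CPM.

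The glycan enzymes included 1 gene called in each direction. Arsb, the arylsulfatase that acts on dermatan and chondroitin sulfate, stood at 196 CPM [179 to 215] and 213 CPM [199 to 229] in microglia-like against 64.0 CPM [58.7 to 69.7] and 71.2 CPM [65.8 to 76.8] in BAM-like cells, a ratio of 3.06 [2.70 to 3.47] and 3.00 [2.70 to 3.33]. Sgsh, the sulfamidase of heparan sulfate breakdown, ran the other way at 8.39 and 10.8 CPM against 31.3 and 31.0 CPM (0.268 [0.161 to 0.423] and 0.350 [0.245 to 0.488]). Hexa, a subunit of beta-hexosaminidase, was at 616 and 554 CPM in microglia-like and 761 and 755 CPM in BAM-like cells, and Man2b1, the lysosomal alpha-mannosidase, at 514 and 473 CPM and 392 and 395 CPM. Gusb (beta-glucuronidase) was at 167 and 178 CPM in microglia-like and 153 and 173 CPM in BAM-like cells. Glb1 (beta-galactosidase) was at 44.7 and 48.0 CPM in BAM-like and 38.2 and 43.7 CPM in microglia-like cells. For both genes these intervals overlapped in each library. Neu1 (neuraminidase, 84.5 and 84.2 CPM) was highest in BAM-like cells, while Manba (beta-mannosidase) stayed at or under 37.9 CPM in every class. Gaa, the acid alpha-glucosidase that degrades glycogen, was higher in fibroblast-like cells (145 and 152 CPM) than in microglia-like (40.7 and 57.2 CPM) or BAM-like cells (73.0 and 77.9 CPM).

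Of the lipid genes, Galc, the galactocerebrosidase that degrades a main myelin lipid, differed most between the macrophage classes. It measured 129 CPM [121 to 137] and 131 CPM [124 to 139] in BAM-like and 33.6 CPM [26.6 to 41.8] and 37.4 CPM [31.4 to 44.2] in microglia-like cells (0.260 [0.205 to 0.327] and 0.286 [0.238 to 0.341]), and neuron-like and ependymal-like cells held 100.1 and 78.6 CPM and 91.1 and 103 CPM. Psap, the precursor of the saposins that present sphingolipids to their hydrolases, was broad, with 1610.2 and 1770.5 CPM in microglia-like, 1266 and 1460.4 CPM in BAM-like and 1321 and 1365 CPM in choroid plexus epithelial-like cells. Asah1 (acid ceramidase), Lipa (acid lipase) and Npc2 (a soluble cholesterol carrier) were all highest in BAM-like cells, at 612 and 627 CPM, 225 and 222 CPM and 1123 and 1126 CPM. Plbd2, a phospholipase B-like protein, was also highest there (89.3 and 83.9 CPM). Ppt1, the thioesterase that removes palmitate from proteins, was at 196 and 222 CPM in microglia-like and 173 and 201 CPM in BAM-like cells, with overlapping intervals. Npc1, the membrane partner of Npc2, was instead highest in oligodendrocyte-like cells, at 323 CPM [279.9 to 372] and 318 CPM [287 to 351].

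The membrane proteins separated into macrophage genes and broad genes. Cd68, a heavily glycosylated protein used as a macrophage marker, stood at 783 and 759.5 CPM in BAM-like and 667 and 617 CPM in microglia-like cells but at 10.9 and 13.7 CPM in endothelial-like cells. Laptm5, a lysosomal protein of blood cells that dampens receptor signalling, measured 2012 and 1908 CPM in microglia-like and 1123 and 1149 CPM in BAM-like cells. Its relatives behaved differently, since Laptm4a peaked in mural-like cells (1204 and 1406 CPM) and Laptm4b in choroid plexus epithelial-like cells (131 and 134 CPM). Lamp1 was highest in oligodendrocyte-like cells (1664 and 1557 CPM) and next in BAM-like cells (1305 and 1361 CPM). Lamp2 differed little between microglia-like (560.2 and 595 CPM) and BAM-like cells (594 and 588 CPM), and Scarb2, the receptor that carries glucocerebrosidase, was at 190.1 and 206 CPM in microglia-like and 175 and 219 CPM in oligodendrocyte-like cells. Mcoln1, the calcium channel TRPML1, was highest in neuron-like cells at 55.2 CPM [42.98 to 69.9] and 88.4 CPM [77.0 to 101].

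The V-ATPase subunits were spread over all classes. Atp6v0d1 spanned 53.4 to 108 CPM in the heterozygous library, and Atp6v1a 89.4 to 244 CPM. Atp6v1b2, the B subunit isoform common in brain, was an exception, at 252 and 257 CPM in neuron-like against 89.3 and 108 CPM in BAM-like cells. Atp6v0c, the proteolipid of the proton channel, was highest in BAM-like cells at 1077 and 1124 CPM. Grn, which encodes progranulin, a secreted and lysosomal glycoprotein, measured 1104 and 1189.8 CPM in BAM-like, 878 and 989 CPM in microglia-like and 155 and 169 CPM in fibroblast-like cells.

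Against vascular and stromal cells the macrophage classes were higher for most of the genes. By the same 2-fold rule, 31 of 42 genes were higher in BAM-like than in endothelial-like cells and 0 lower, against 13.4% and 21.0% of all genes tested. Microglia-like over endothelial-like cells gave 29 higher and 0 lower of 42 (all genes 13.3% and 20.2%). BAM-like over mural-like cells gave 27 higher and 1 lower of 42 (all genes 12.3% and 21.0%), and microglia-like over mural-like cells 25 and 2 of 41 (all genes 14.1% and 17.8%). BAM-like over fibroblast-like cells gave 25 higher and 2 lower of 43 (all genes 13.6% and 26.0%), and microglia-like over fibroblast-like cells 25 and 4 (all genes 13.8% and 25.2%). The lower genes were Laptm4b in each mural and fibroblast comparison, Laptm4a for microglia-like cells, Ctsk against fibroblast-like cells and Gaa in microglia-like against fibroblast-like cells. The largest ratios of BAM-like over endothelial-like cells were those of Cd68 (72.0 [55.0 to 96.3] and 55.3 [43.2 to 72.1]), Laptm5 (33.4 [28.6 to 39.2] and 23.7 [20.7 to 27.1]), Ctsb (21.2 [19.8 to 22.8] and 19.6 [18.4 to 21.0]), Ctss (26.9 [24.1 to 30.1] and 19.5 [17.9 to 21.4]) and Lgmn (22.9 [20.4 to 25.7] and 16.6 [15.0 to 18.4]). For microglia-like over endothelial-like cells they were those of Ctss (77.0 [69.0 to 86.3] and 51.8 [47.5 to 56.7]), Cd68 (61.4 [46.7 to 82.3] and 44.9 [35.0 to 58.7]), Laptm5 (59.8 [51.2 to 70.4] and 39.3 [34.4 to 45.1]) and Lgmn (51.9 [46.4 to 58.3] and 37.6 [34.0 to 41.7]). Against fibroblast-like cells Ctsc also stood out, at 94.9 [82.4 to 109.8] and 73.4 [66.3 to 81.6] for BAM-like cells. The median log2 ratio of BAM-like over endothelial-like cells was 1.71 and 1.72, against -0.36 and -0.36 for all genes.

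5 genes were low outside the macrophage and neutrophil-like classes, and the matching share over all genes was not calculated. In each of the 7 classes left, Ctss, Ctsc, Lgmn, Cd68 and Laptm5 stayed under 10% of their higher macrophage level in both libraries. The highest other class reached 1.30% and 1.93% of that level for Ctss, 2.52% and 2.89% for Laptm5, 4.38% and 2.47% for Cd68, 5.34% and 5.39% for Lgmn and 6.19% and 7.82% for Ctsc. Neutrophil-like cells held 627 and 538 CPM of Ctsc, beside 519.9 and 593 CPM in microglia-like cells. They held 859.8 and 1408 CPM of Ctss, 670.3 and 762 CPM of Lgmn, 585 and 692 CPM of Laptm5 and 281 and 262 CPM of Cd68, next after the macrophage classes for each in both libraries. The microglial and BAM marker lists were also found in these classes, at 161 and 212 CPM in heterozygous endothelial-like cells against 17983 and 17395 CPM in the macrophage class of each list. The part of such macrophage RNA in the low levels of the 5 genes was not tested.

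Few lysosomal genes, like few genes in general, were called between the 3 clusters that BAM-like cells formed. The clusters were a Lyve1-high cluster (1098 and 1001 cells), a cluster led by the chemokines Ccl7 and Ccl2 (470 and 406) and an MHC-II-high cluster (330 and 436). The genes took 2.77% and 2.87%, 2.50% and 2.67% and 2.48% and 2.70% of UMIs in them. With a 1.5-fold rule, 2 of 42 genes were higher and 3 lower in the MHC-II-high than in the Lyve1-high cluster, where 4.24% and 4.09% of all genes were. Ctss was higher, at 2616 against 1544 CPM and 3525 against 1648 CPM, ratios of 1.69 [1.63 to 1.76] and 2.14 [2.07 to 2.21]. Psap was higher too, at 1901 against 1134 CPM and 2154 against 1215 CPM (1.68 [1.60 to 1.75] and 1.77 [1.71 to 1.84]). The lower genes were Galc (0.562 [0.472 to 0.665] and 0.604 [0.521 to 0.698]), Neu1 (0.662 [0.534 to 0.816] and 0.665 [0.552 to 0.797]), and Mcoln1 (0.587 [0.372 to 0.901] and 0.571 [0.393 to 0.817]). Over 11 alternative settings the call of Neu1 was lost in 6, that of Mcoln1 in 3, those of Ctss and Psap in 1 each and that of Galc in 0.

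The 10 microglial markers summed to 4085 and 4920.3 CPM in the MHC-II-high cluster, against 2994 and 2956 CPM in the Lyve1-high one, and their part in the Ctss difference was not tested. At a mitochondrial limit of 5% neither gene was called higher. There, the Lyve1-high cluster itself held 7124 and 7046 CPM of the microglial markers, and Ctss was at 2464 and 3055 CPM in it. Ctsb and Ctsc were lower in the MHC-II-high cluster without reaching 1.5-fold in both libraries, with Ctsb at 2753 and 2939 CPM against 4004 and 4333 CPM. Between the Ccl7-led and the Lyve1-high cluster 0 of 42 genes were called either way (all genes 2.21% higher and 0.451% lower).

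**Figure D4:**
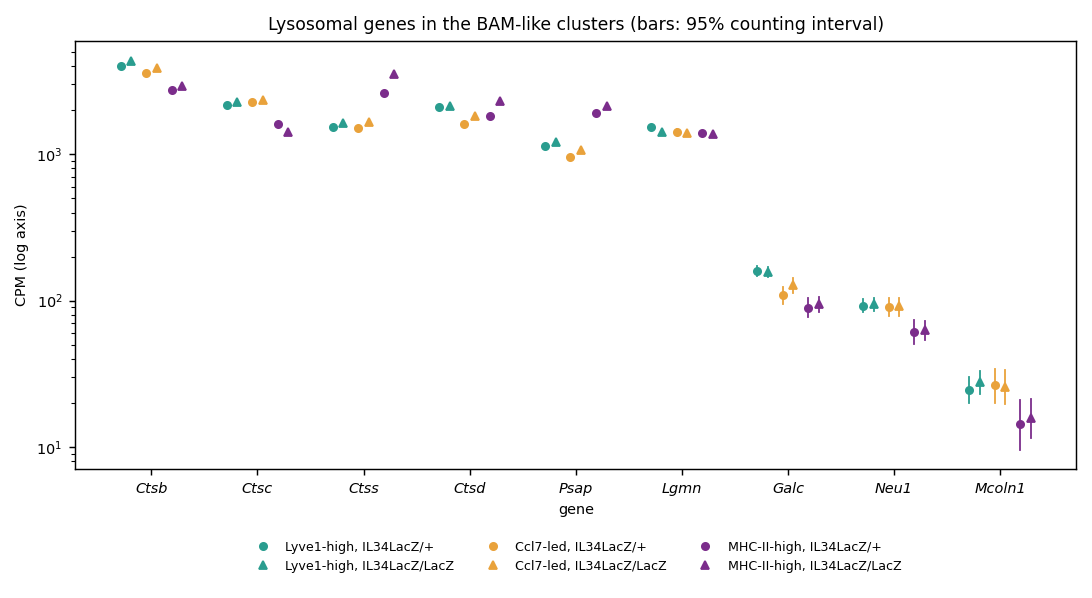
Level of 9 lysosomal genes in the 3 BAM-like clusters, in CPM on a log axis; circles are IL34LacZ/+, triangles IL34LacZ/LacZ and bars 95% counting intervals. Ctss and Psap are highest in the MHC-II-high cluster in both libraries, and Galc, Neu1 and Mcoln1 are lower there than in the Lyve1-high cluster.

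Microglia-like cells were divided once more, into 400 and 557 cells (m0) and 357 and 480 cells (m1), with a median of 2166 UMIs per cell in m0 and 3831 in m1. The 5 leading genes of m1 were Bpifa1 and Ltf, which encode secreted epithelial proteins, Atf3, Klf2 and the chemokine Ccl4. Between them 0 of 41 lysosomal genes were called at 1.5-fold, against 1.32% and 0.0291% of all genes. Ctss stood at 4995 and 5893 CPM in m0 and at 5218 and 5840.2 CPM in m1. Lgmn likewise measured 3151 and 3055 CPM and 3445 and 3267 CPM.

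The genotypes differed little in BAM-like cells. A gene was called when it was at least 25% higher, or at least 20% lower, in the homozygous library, with an interval without 1 and at least 100 UMIs. Of 42 genes tested, 1, Ctso, was higher and 0 lower, against 6.37% and 2.6% of all 9462 genes tested. Ctso, a little-studied cysteine cathepsin, stood at 66.3 against 52.9 CPM, a ratio of 1.253 [1.11 to 1.42], at the threshold itself. Ctss was at 2209.7 against 1791 CPM, 1.23 [1.21 to 1.26], and Npc1 at 102 against 81.9 CPM, 1.246 [1.13 to 1.38], both just under it. The median log2 ratio was 0.06 over the lysosomal genes and 0.04 over all genes.

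Within the BAM-like clusters the Ctss difference was uneven. In the MHC-II-high cluster Ctss was higher in the homozygous library, at 3525 against 2616 CPM, 1.35 [1.30 to 1.39]. In the Lyve1-high cluster it was at 1648 against 1544 CPM, 1.07 [1.03 to 1.10], and in the Ccl7-led cluster at 1665 against 1518 CPM, 1.10 [1.05 to 1.15]. The ratios of the last 2 clusters were thus smaller than that of all BAM-like cells, and the MHC-II-high cluster, which had the highest Ctss, held 330 of 1898 heterozygous and 436 of 1843 homozygous BAM-like cells. In the MHC-II-high cluster Ctsd (1.28 [1.23 to 1.33]) and Ctsl (1.26 [1.15 to 1.38]) were also called, 3 genes of 39 in all, where 6.61% of all genes were higher. All 3 were also among the genes called higher in microglia-like than in BAM-like cells. The summed microglial markers went from 4085 to 4920.3 CPM in that cluster, and from 2994 to 2956 CPM in the Lyve1-high one. Over all BAM-like cells their ratio was 1.09 [1.07 to 1.11], and that of the BAM markers 0.969 [0.963 to 0.976]. The part of microglial RNA in these ratios was not tested. The Lyve1-high cluster gave 3 of 42, Ctso (1.30 [1.09 to 1.55]), Manba (1.36 [1.07 to 1.75]) and Npc1 (1.30 [1.13 to 1.49]), against 6.58% of all genes. The Ccl7-led cluster gave 1 of 41, Atp6v1b2 (1.29 [1.06 to 1.56]), against 5.51%. No lysosomal gene was called lower in any of the 3 clusters, where 4.66%, 2.43% and 3.47% of all genes were, in the order given, and the differences between clusters were not tested.

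Microglia-like cells showed 2 of 41 genes higher in the homozygous library and 0 lower, against 4.7% and 3.48% of all 6868 genes tested. Gaa was at 57.2 against 40.7 CPM, 1.41 [1.10 to 1.81], and Atp6v1b2 at 87.6 against 68.0 CPM, 1.29 [1.06 to 1.57]. Their intervals were wide. Ctss was at 5861 against 5132 CPM, 1.14 [1.12 to 1.17], Ctsb at 1.12 [1.08 to 1.17] and Grn at 1.13 [1.07 to 1.19], all under the threshold. Ctsd was nearly level at 0.989 [0.968 to 1.01], and Lgmn was at 0.956 [0.929 to 0.983]. In the subclusters Gaa was the 1 gene of 36 called in m0 (all genes 5.78% higher, 3.82% lower) and Atp6v1b2 the 1 of 38 in m1 (all genes 3.61% and 4.38%). The median log2 ratio was 0.07 over the lysosomal genes and -0.0040 over all genes.

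**Figure D5:**
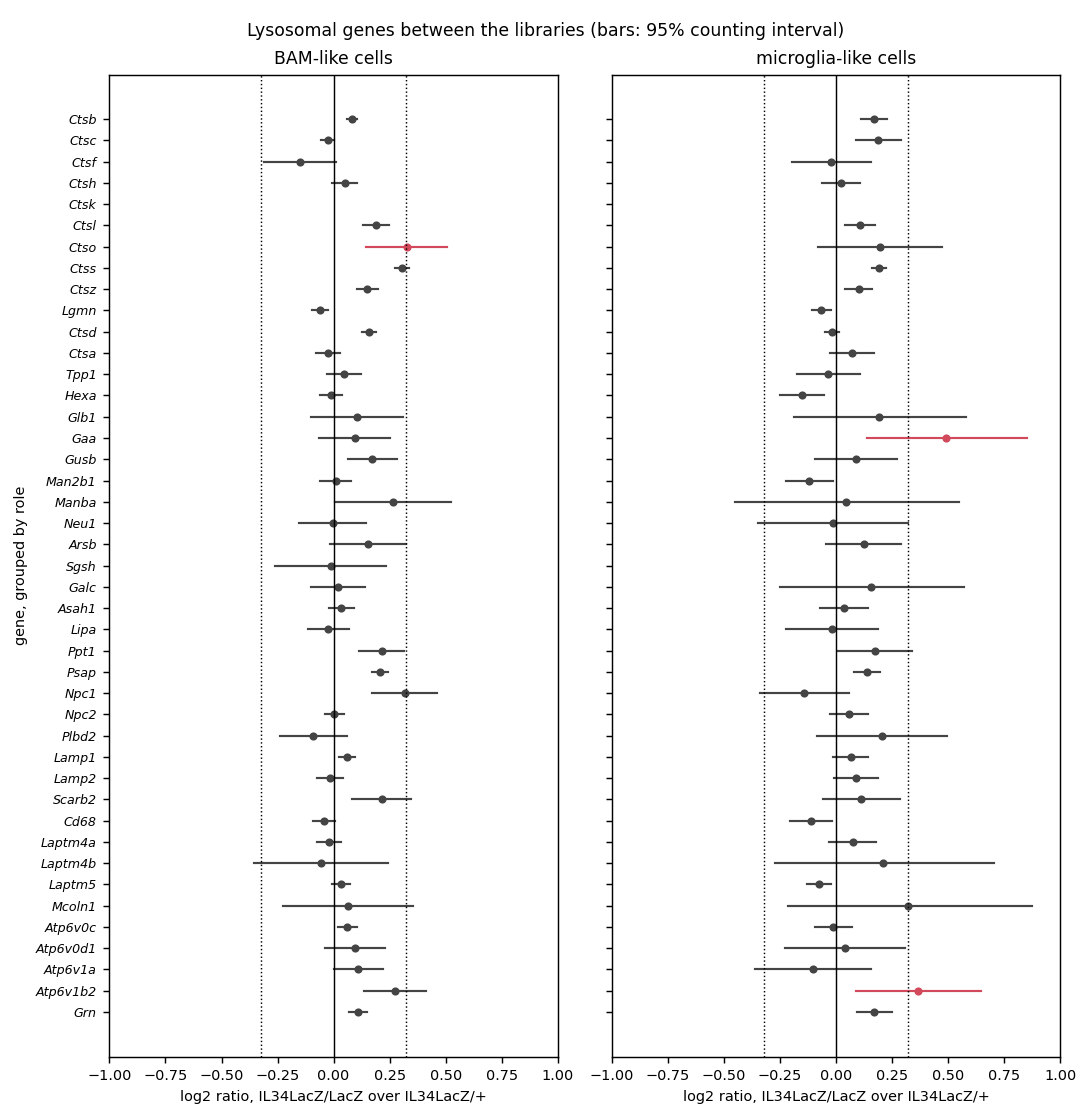
log2 ratio of each lysosomal gene, IL34LacZ/LacZ over IL34LacZ/+, in BAM-like and microglia-like cells; points are ratios, bars 95% counting intervals, dotted lines the thresholds of 25% higher and 20% lower, and red marks the called genes. Only Ctso in BAM-like cells and Gaa and Atp6v1b2 in microglia-like cells are called.

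Outside the macrophages, several of the called genes were those of the macrophage classes. In endothelial-like cells 4 of 41 genes were higher in the homozygous library and 0 lower (all genes 5.43% and 4.09%). They were Ctss (113 against 66.6 CPM, 1.70 [1.47 to 1.96]), Laptm5 (1.44 [1.18 to 1.78]), Lgmn (1.32 [1.14 to 1.54]) and Neu1 (1.42 [1.06 to 1.91]). In the same cells the summed microglial markers went from 161 to 215 CPM, 1.34 [1.22 to 1.47], and the BAM markers from 212 to 315 CPM, 1.49 [1.37 to 1.62], with none of the 22 markers at 0. In choroid plexus epithelial-like cells 7 of 41 were higher and 0 lower (all genes 11.0% and 1.02%), led by Ctss (1.79 [1.59 to 2.02]), Cd68 (1.77 [1.31 to 2.38]) and Grn (1.55 [1.29 to 1.85]). There the marker lists were also higher, with ratios of 1.49 [1.39 to 1.59] and 1.37 [1.27 to 1.48]. The part of macrophage RNA in these ratios was not tested.

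Fibroblast-like cells gave 4 of 43 genes higher and 1 lower (all genes 6.08% and 2.95%), and their macrophage markers were slightly lower in the homozygous library, at 0.921 [0.882 to 0.963] and 0.941 [0.903 to 0.980]. The higher genes were Scarb2 (1.29 [1.16 to 1.44]), Ppt1 (1.28 [1.16 to 1.41]), Laptm5 (1.30 [1.07 to 1.57]) and Ctsc (1.27 [1.06 to 1.52]). Neu1 was lower, at 0.784 [0.676 to 0.909]. Cluster 0, the largest of the 4 fibroblast-like clusters, gave 4 higher and 1 lower of 43 (all genes 5.71% and 3.55%). Cluster 8 gave 1 and 0 of 24 (all genes 4.52% and 2.69%), cluster 11 gave 1 and 0 of 37 (all genes 5.28% and 4.55%) and cluster 19 gave 3 and 1 of 14 (all genes 8.82% and 11.0%).

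Mural-like cells, with the fewest UMIs of the vascular classes, gave 4 of 23 higher, Ctsb (1.49 [1.14 to 1.96]), Gaa, Lgmn and Lamp2, and Ctsh lower (0.606 [0.425 to 0.866]), against 9.69% and 9.93% of all genes. There the microglial markers had a ratio of 0.970 [0.759 to 1.246] and the BAM markers one of 1.12 [0.859 to 1.46]. Neuron-like cells gave 5 higher and 5 lower of 37 (all genes 7.86% and 7.81%), with Mcoln1 at 1.60 [1.21 to 2.13] and Atp6v1a at 0.653 [0.541 to 0.789]. Their microglial markers were at 0.968 [0.845 to 1.11] and their BAM markers at 0.776 [0.699 to 0.862]. Oligodendrocyte-like cells gave 0 higher and 5 lower of 24 (all genes 3.6% and 3.79%), where the microglial markers had a ratio of 1.18 [0.909 to 1.54] and the BAM markers one of 0.374 [0.316 to 0.443]. Ependymal-like cells gave 1 higher, Lgmn, and 1 lower, Gaa, of 29 (all genes 3.12% and 3.16%), beside microglial markers at 1.12 [0.929 to 1.36] and BAM markers at 0.613 [0.502 to 0.750]. Neutrophil-like cells gave 6 higher and 0 lower of 35 (all genes 6.96% and 6.94%), with Ctss at 1.64 [1.51 to 1.78] beside microglial markers at 1.41 [1.33 to 1.49] and BAM markers at 0.799 [0.770 to 0.829]. The part of macrophage RNA in the ratios of these 5 classes was not tested.

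The other lysosomal genes, in 6 lists of 102 genes, followed the macrophage pattern only in part. Of 26 further hydrolases, 16 were higher in BAM-like than in endothelial-like cells and 0 lower, with 24 tested, against 13.4% and 21.0% of all genes. Of 21 further membrane proteins 9 were higher and 0 lower, with 19 tested. Of 15 further V-ATPase subunits, 3 were higher and 2 lower, with 14 tested. The genes that deliver enzymes to the lysosome gave 4 higher and 2 lower of 14 tested, the regulators 6 and 0 of 14 and the cathepsin inhibitors 1 and 1 of 4. In microglia-like over BAM-like cells, 2 of 5 cathepsin inhibitors tested were higher and 2 lower, against 7.27% and 6.71% of all genes. Cst3 (61897 against 11454 CPM and 58234 against 12015 CPM) and Cst7 were higher, and Cstb and Serpinb6a lower. Of 24 further hydrolases tested, 1 was higher and 3 lower. Among the lower was Plbd1, another phospholipase B-like protein (0.839 against 32.1 CPM and 3.25 against 44.6 CPM). The regulators gave 1 higher and 1 lower of 14, the lower being Tfec, a relative of TFEB (0.0404 and 0.0310). Between the genotypes, 5 of 24 further hydrolases were higher and 1 lower in BAM-like cells, against 6.37% and 2.6% of all genes. Among them were Acp5, an acid phosphatase (2.05 [1.47 to 2.90]), Plbd1 (1.39 [1.19 to 1.63]) and, lower, Hgsnat (0.779 [0.724 to 0.837]). Rnaset2a and Rnaset2b, 2 of the 5, are near-identical copies whose reads cannot be assigned with certainty. Of the delivery genes 3 of 13 were higher, namely Sort1 (1.26 [1.001 to 1.58]), Gga3 (1.44 [1.13 to 1.83]) and Lrp1 (1.26 [1.15 to 1.37]). Of the membrane proteins 2 of 18 were higher, Slc15a3 (1.31 [1.18 to 1.45]) and Cln3 (1.34 [1.19 to 1.53]). Of the regulators 1 of 14 was higher, Tfeb, at 25.8 against 18.5 CPM, 1.39 [1.13 to 1.72]. No gene of these 3 lists was lower, and 0 of 13 further V-ATPase subunits and 0 of 4 cathepsin inhibitors were called either way.

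Genes with the motif and genes without it both included large macrophage ratios, and Lgmn, described above, holds it. The 12 genes with CACGTG had a median BAM-like over endothelial-like ratio of 2.57 and 2.80, and 23 matched genes without it 4.23 and 3.71. For homozygous over heterozygous BAM-like cells the medians were 1.06 and 1.03 for genes with and without it. These are medians over genes, given as a description.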

How the data were processed

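Counts of unique molecular identifiers (UMIs) per gene and cell were deposited by the authors as 1 matrix per library, which per the file headers came from Cell Ranger 5.0.0 and used mouse build GRCm38.p6 (mm10) per the submitters' processing notes. How the authors chose barcodes is not known here. The lowest total was 500 UMIs per barcode. Cells were kept from 1000 UMIs and 500 genes upwards and up to a mitochondrial share of 10%, after removal of doublets called by Scrublet at an expected rate of 10% (6.25% and 6.33% of barcodes called). For clustering, each cell was scaled to 10000 UMIs and put on a log scale. With 2000 variable genes, excluding the 43 lysosomal genes and 102 further lysosomal genes, 30 principal components and 20 neighbours, Leiden clustering at resolution 1 (seed 1) gave the clusters, in scanpy 1.11.5 with leidenalg 0.10.2, scipy 1.17.1 and Python 3.11.15.

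Clusters were named from marker lists when the mean log2 enrichment over the median cluster was at least 1 (pseudocount 10 CPM), at least 3 markers were at least 2-fold enriched, the next type was at least 0.5 behind, and own markers outnumbered those of other types among the 10 leading genes. These thresholds were set after the data were seen. Clusters 12, 13 and 24 stayed unnamed. Names such as BAM-like are rebuilt and may differ from those of the study. Medians per cell ranged from 1704.5 UMIs (mural-like, heterozygous) to 14202 UMIs (choroid plexus epithelial-like, homozygous). Ratios were calculated from UMIs summed per class and library. Promoters and gene positions came from RefSeq and GENCODE vM21 on GRCm38. The ratio procedure was checked on simulated counts. The members and lists were chosen with earlier results of these data known. Genes named with values were the 2 of each role with the most UMIs, up to 8 called members per direction by size of ratio, members ordered differently from their role, and up to 3 called genes of each further list per direction. Other names were chosen after the values were seen.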

Additional observations from a re-analysis of the deposited data

Results flagged for a closer look

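Of 43 lysosomal genes tested in at least 2 classes, 6 were called in opposite directions between the libraries in different classes (13.95%), against 3.82% of all genes so tested. The lysosomal genes were tested in a median of 9 classes and all genes in 6. The differences between classes were not tested, and each value is a homozygous over heterozygous ratio. Ctsb was 1.49 in mural-like and 0.732 in oligodendrocyte-like cells. Ctsz was 1.39 in neuron-like, 1.36 in neutrophil-like and 0.681 in oligodendrocyte-like cells. Gaa was 1.41 in microglia-like, 1.64 in mural-like, 1.32 in neuron-like and 0.753 in ependymal-like cells. Neu1 was 1.42 in endothelial-like and 0.784 in fibroblast-like cells. Galc was 1.41 in choroid plexus epithelial-like and 0.785 in neuron-like cells. Grn was 1.55 in choroid plexus epithelial-like and 0.637 in oligodendrocyte-like cells. In oligodendrocyte-like cells the microglial markers had a ratio of 1.18 and the BAM markers 0.374. In choroid plexus epithelial-like cells these were 1.49 and 1.37. The part of macrophage RNA in the 6 genes was not tested. Over 11 alternative settings the mural-like calls of Ctsb and Gaa were lost in 3 and 5. Those of Gaa in microglia-like and Neu1 in endothelial-like cells were lost in 2 each. The fibroblast-like call of Neu1 was lost in 4 of 12, and its log2 ratio reversed to 0.085 in another.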

How the results depend on the processing

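No paired analysis was possible because each genotype has 1 library. Counts of called lysosomal genes stayed within 1.5 times for microglia-like over BAM-like cells (6 higher and 3 to 4 lower) and for BAM-like over endothelial-like cells (30 to 33 higher, 0 lower). Of the main results, 364 alternative values were unchanged by this measure and 60 moved, and of single genes 278 values kept their call, 78 lost it and 4 reversed. BAM-like over mural-like lower calls (1) became 2 at the 5% mitochondrial limit, with doublets kept or from 20 UMIs. They became 0 from 500 UMIs or when scaled without mitochondrial and the 50 most abundant genes. Over all genes, 2125 lower calls became 1100, 1976, 2960, 760 and 1803 in these settings, in that order. Microglia-like over mural-like lower calls (2) became 1 from 2000 UMIs per cell, at resolution 0.5, thinned to 1000 UMIs, from 500 UMIs and with that scaling. Over all genes, 1463 lower calls became 1102, 1439, 705, 364 and 1302 in the same order. MHC-II-high over Lyve1-high calls (2 higher, 3 lower) became 0 and 13 at the 5% limit. Those over all genes went there from 373 higher and 360 lower to 305 and 585. The lysosomal lower calls became 6 at resolution 0.5, 8 with lysosomal genes in the clustering and 5 with equal weight per cell. The lower calls over all genes were 538, 506 and 554 in these settings. Ccl7-led lower calls (0) became 1 at the 5% limit, and m1 over m0 higher calls (0) became 1 when thinned. Over all genes these went from 39 to 225 and from 91 to 64. Homozygous BAM-like higher calls (1) became 0 at the 5% limit, at resolution 0.5, with lysosomal genes in the clustering and with that scaling. They became 2 when thinned and 3 with equal weight per cell. Over all genes, 603 higher calls became 385, 655, 652, 524, 324 and 1216 in the same order. With equal weight no interval was used in any comparison, so those calls rest on the ratio and the UMI minimum alone. Chosen after seeing the data, the BAM-like higher calls were 3 in the Lyve1-high and 3 in the MHC-II-high cluster alone. The median log2 ratio was 0.11 in the Ccl7-led one. Microglia-like higher calls (2) became 1 when thinned and 0 from 500 UMIs. Over all genes, 323 became 140 and 64. Endothelial-like higher calls (4) became 9 at the 5% limit and 2 with doublets kept or from 500 UMIs. Over all genes, 479 became 373, 495 and 124 in these settings. Mural-like calls (4 higher, 1 lower) became 0 and 0 at the 5% limit, when thinned and from 500 UMIs. Over all genes, 275 higher and 282 lower calls became 45 and 35, 68 and 74, and 56 and 70 there. The lysosomal higher calls became 2 from 2000 UMIs per cell (all genes 219). The lower ones became 0 with doublets kept (all genes 121) and 2 with equal weight (all genes 480). Fibroblast-like calls (4 higher, 1 lower) became 1 and 0 at the 20% limit and 2 and 0 from 2000 UMIs per cell or thinned. Over all genes, 674 and 327 became 854 and 343, 599 and 386, and 349 and 192 there. The lysosomal calls became 1 higher with equal weight (all genes 1442 higher). They were 0 and 0 in the 3 smaller clusters (added after seeing the data), where those over all genes were 380 and 278. Median shares per cell moved in microglia-like cells to 3.24% (5% limit) and 3.32% (2000 UMIs) in the heterozygous and 3.37% (2000 UMIs) and 3.20% (thinned) in the homozygous library, and in BAM-like cells to 2.68% (5%), 2.49% (20%), 2.62% (2000 UMIs) and 2.50% (thinned) and to 2.80% (5%), 2.68% (20%) and 2.68% (lysosomal genes in the clustering). Log2 ratios that reversed were Laptm5 in endothelial-like (-0.0058) and fibroblast-like cells (-0.043) and Lgmn in mural-like cells (-0.22), all thinned, and Neu1 in the smaller fibroblast-like clusters (0.085). The causes were not tested. The scaling moved the all-gene median of BAM-like over endothelial-like cells from -0.36 to -0.20 in the heterozygous library, and the lysosomal calls there stayed between 30 and 33. The Ccl7-led cluster was not recovered at resolution 0.5, and the division of microglia-like cells was not repeated in settings that re-clustered the cells. Depth limited how many of the 43 genes reached 100 UMIs between the libraries, with 23 in mural-like cells, the lowest of the 10 classes, and 14 in fibroblast-like cluster 19.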

Other observations

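An unnamed cluster of 179 and 251 cells carried markers of both macrophage classes, with P2ry12 at 1419 and 1186 CPM and Mrc1 at 2335 and 2135 CPM, and a median of 7135 and 6857 UMIs per cell. The 43 genes took 3.13% and 3.17% of its UMIs. Its protease levels lay between those of microglia-like and BAM-like cells, with Ctss at 3057 and 3488 CPM, Ctsc at 1498 and 1530.0 CPM and Lgmn at 2400.3 and 2334 CPM. It entered no class.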
